A study of Mus musculus with 6 samples.

Results

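Mouse genes that carry only a provisional name, either Gm followed by digits (a predicted gene model) or a RIKEN clone name ending in Rik, were examined among the abundant transcripts of medial mammillary neurons. The 60 genes were chosen by their measured level, at least 20 FPKM (fragments counted in a gene, scaled by its length in kilobases and by library depth in units of 1e6 fragments) in all 3 Drd2 libraries or in all 3 PV libraries. They are 0.211% of the 28450 genes with such names in a table of 55414 genes, and 2.82% of the 2130 genes of any name that reach the same level. The libraries came from male mice: slices of the medial mammillary nucleus, a cell group of the posterior hypothalamus, were treated with papain and fluorescent cells were drawn into glass electrodes. The genotype label divides the 6 libraries into 3 PV-positive (parvalbumin, a calcium-binding protein; replicates 6, 7 and 8) and 3 Drd2-positive (the D2 dopamine receptor; replicates 1, 2 and 3), with neuron as the cell type and no treatment or age given. The labels' protocols name an RNA input in the microgram range, and the sources used here do not say how it was reached from drawn cells, so what each library holds is uncertain. They name neither the reporter alleles nor the number of mice or cells behind a library, so p-values measure the spread between these libraries, which may be technical.

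A provisional name says nothing about what a transcript does. Some of these genes encode conserved proteins that have an established name in human, others are long noncoding RNAs, and many are processed pseudogenes, which arise when a messenger RNA is copied back into the genome without introns. Reads from a processed pseudogene and from its parent messenger RNA can be nearly identical, so the level listed for one depends on how the reads of both were shared out.

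The FPKM denominators lay between 23.8 and 33.7 in units of 1e6 fragments, and PV replicate 7 had the fewest genes at 1 FPKM or more (8610, against 10293 to 12398 in the other 5 libraries). The 5 neuronal markers summed to 605 to 921 FPKM in the Drd2 libraries and 1074 to 1555 FPKM in the PV libraries. Markers of other cells were present: the 9 microglial markers reached 3540 FPKM in Drd2 replicate 3, against 23.9 to 1313 FPKM in the other 5 libraries, and the 4 haemoglobin genes summed to 743 to 3203 FPKM in PV and 0 to 11.5 FPKM in Drd2 libraries. Oligodendrocyte markers (7) summed to 74.2 to 1338 FPKM in Drd2 and 67.9 to 320 FPKM in PV libraries, and astrocyte markers (7) to 143 to 502 and 516 to 559 FPKM. The part of these transcripts in the group differences below was not tested. Of the 4 vascular markers Cldn5 was listed at 0 in all 6 libraries. Drd2 replicate 3 and PV replicate 7 stood apart in several results below, and results that rest on them are given library by library or also without them.

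Sequences are shown for a copy that is letter for letter its parent, a copy that differs by 1 base, and a chromosomal copy of mitochondrial DNA that is set apart by a few bases at 1 end. Gm10736 lies on chromosome 13 (mm10 chr13:111593534-111593611, minus strand), is annotated as a processed pseudogene of 1 exon, and its 78 bases equal the complete open reading frame of Rpl41 (25 codons before the stop), a protein of the large ribosomal subunit. Both are printed 5′ to 3′ from GENCODE M21.
Gm10736: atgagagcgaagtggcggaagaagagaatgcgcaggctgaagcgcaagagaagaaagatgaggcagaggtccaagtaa
Rpl41: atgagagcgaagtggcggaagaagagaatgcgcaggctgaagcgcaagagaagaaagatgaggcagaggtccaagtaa
No letter is in capitals because none differs. Gm11223, a processed pseudogene on chromosome 4, spans 450 bases that equal the open reading frame of Stmn1 (149 codons before the stop) except at 1 base, A274G, with Stmn1 first and positions counted from the first base of the copy. The 61 bases around it (chr4:69925776-69925836, minus strand) have the differing base in capitals.
Gm11223: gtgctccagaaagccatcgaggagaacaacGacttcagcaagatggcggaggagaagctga
Stmn1: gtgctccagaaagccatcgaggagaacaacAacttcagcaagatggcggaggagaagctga
Gm29216 on chromosome 1 carries 492 bases of the mitochondrial gene mt-Co1 with 6 differences, all within its first 13 bases (T3A, C4T, A6G, A7G, C9A and A13T, mt-Co1 first). The first 43 bases (chr1:24616155-24616197, minus strand) show them in capitals.
Gm29216: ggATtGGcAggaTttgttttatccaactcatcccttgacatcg
mt-Co1: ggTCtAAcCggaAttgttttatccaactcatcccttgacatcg
A read from the remaining 479 bases of this copy has no letter that tells it from mt-Co1.

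By annotation and by sequence match to other GENCODE M21 transcripts, the 60 genes fell into 22 protein-coding genes, 16 near-identical copies of another gene (at least 95% identity over at least 80% of the length), 13 long noncoding RNAs, 4 other pseudogenes, 3 of other types and 2 mitochondrial matches. Annotated protein-coding genes made up 41.7% of them, against 98.7% of the 2070 other genes at the same level. Their median exon length was 910 bases (range 78 to 6626), against 2622 bases for the other genes, and 22 had a single exon. All members together held 1.43%, 1.48% and 1.58% of the FPKM total in the Drd2 libraries, in replicate order, and 0.858%, 0.927% and 1.06% in the PV libraries. The PV values were lower, without overlap, but mitochondrial genes took 9.62% to 31.2% of the PV totals and 3.74% to 5.20% of the Drd2 totals. With mitochondrial genes removed from the total the shares were 1.49%, 1.56% and 1.64% in Drd2 and 1.12%, 1.35% and 1.17% in PV libraries. The PV shares remained lower, without overlap. The members were chosen by these levels, so the shares are a description. 6330403K07Rik alone held 1193, 959 and 526 FPKM of member sums of 5187, 5188 and 5596 FPKM in Drd2 libraries. In PV libraries it held 91.5, 77.2 and 117 FPKM of 3386, 4150 and 3904 FPKM. All genes with Gm or Rik names held 3.7%, 4.2% and 5.3% of the full FPKM total in Drd2 libraries. In PV libraries they held 3.3%, 2.8% and 4.3%, so these ranges overlap.

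**Figure D1:**
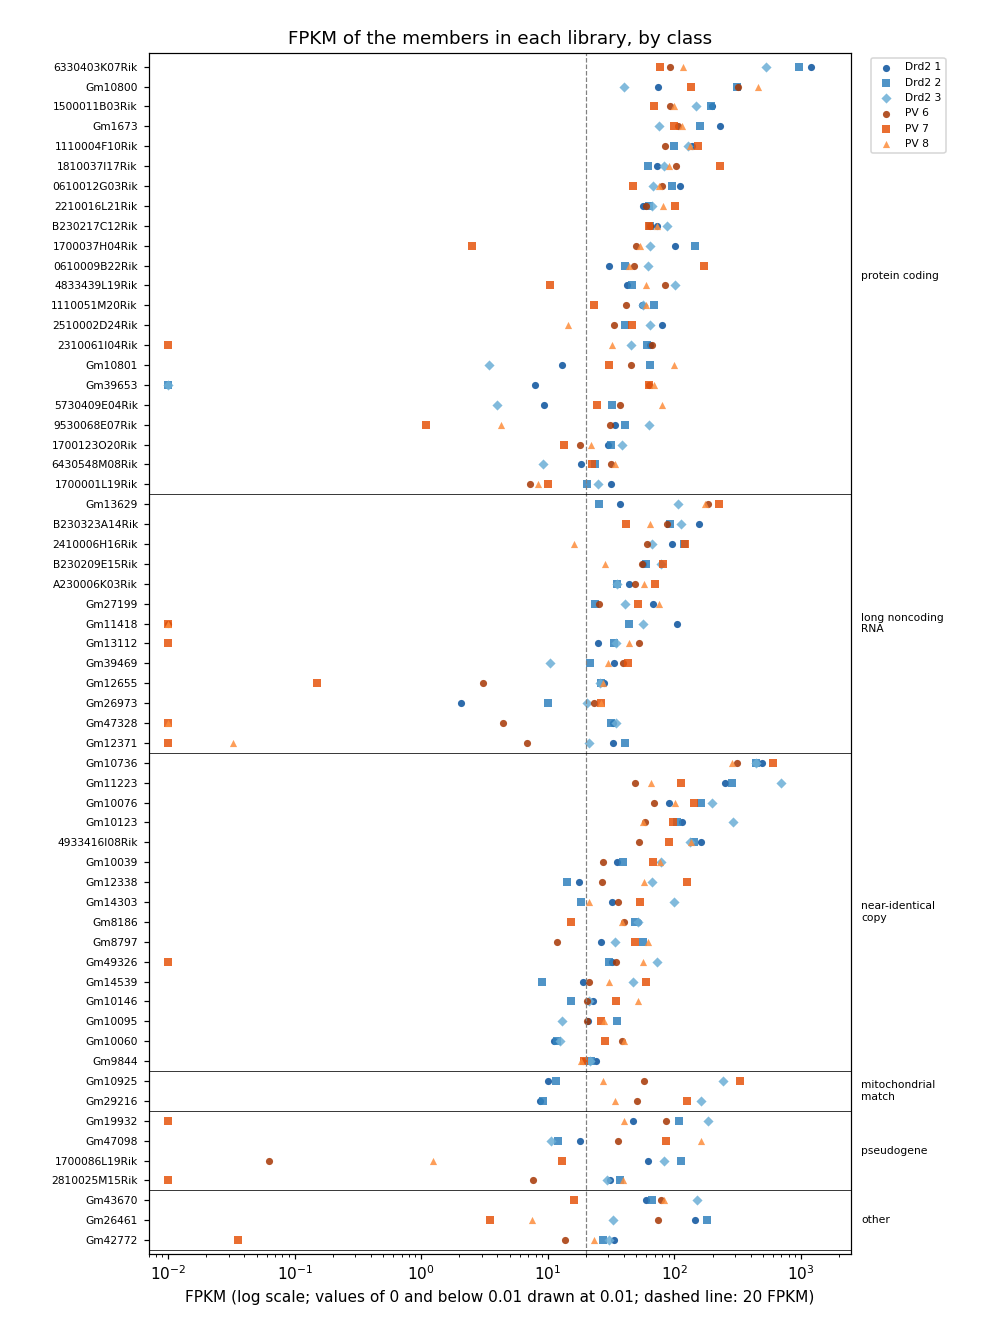
FPKM of each of the 60 members (rows, grouped by class and ordered by mean) in each of the 6 libraries, on a log scale with the 20 FPKM threshold dashed and values of 0 drawn at 0.01. 6330403K07Rik reaches 1193 FPKM in Drd2 replicate 1, and 8 members sit at 0 in PV replicate 7.

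Of the 60 members, 22 reached the level in all 6 libraries (36.7%), 23 in the Drd2 libraries only (38.3%) and 15 in the PV libraries only (25.0%). Among the other 2070 genes the same routes held 57.3%, 33.9% and 8.79%. For members that entered through 1 group the difference between groups is part of the choice, so their values are given as a description, and tests are given for the 22 alone. Differences are PV minus Drd2 on the log2(FPKM + 1) scale, which understates folds of low values, tested with limma over 11478 genes. At an adjusted p below 0.05 that fit called 0.261% of all tested genes (30, of which 25 were higher in Drd2). Of the 22 members tested here 1 was called, 6330403K07Rik. Gm11418 also passed in the fit, but it entered through the Drd2 libraries alone, so that its difference is part of the choice and nothing is read from its call.

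Among all tested genes the 2 groups of libraries did not overlap, with Drd2 higher, in 13.1%, and with PV higher in 5.83%; for the 60 members these counts were 16 and 7, and they rest in part on the choice. Among the 22 members in all 6 libraries, 5 (22.7%) were higher in every Drd2 library and 3 (13.6%) in every PV library. The corresponding shares among the 1186 other genes at 20 FPKM or more in all 6 libraries were 19.3% and 7.17%, so the members were near that background. The 22 differences ranged from -3.16 to 2.03, with a median of -0.32 (8 above and 14 below 0), beside a median of -0.28 over all tested genes and -0.13 over the 1186.

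**Figure D2:**
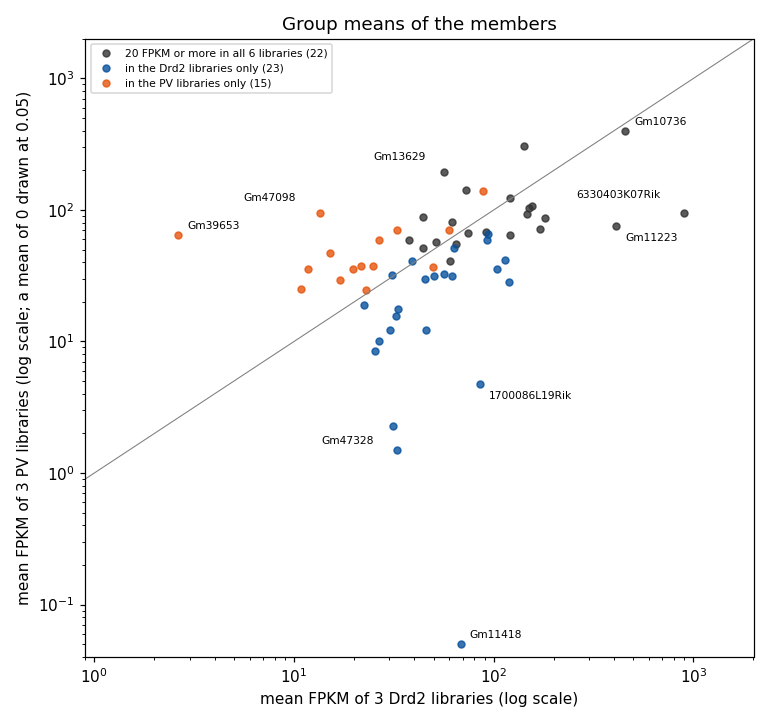
Mean FPKM of the 3 PV libraries against the mean of the 3 Drd2 libraries for the 60 members, on log scales, coloured by the libraries in which the 20 FPKM level was met, with the line of equal means; no error is drawn. 6330403K07Rik lies farthest below the line among the 22 members present in all 6 libraries, and Gm11418, listed at 0 in all PV libraries, is drawn at the lower edge.

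The most abundant of the 22 protein-coding members, and of all 60, was 6330403K07Rik (ENSMUSG00000018451, mm10 chr11:71031941-71033513, minus strand, 2 exons). It measured 1193, 959 and 526 FPKM in Drd2 replicates 1, 2 and 3, beside 91.5, 77.2 and 117 FPKM for PV replicates 6, 7 and 8, and later values follow the same order. The lowest Drd2 library was thus above the highest PV library, with means of 893 ± 338 and 95.2 ± 20.04 FPKM (SD, n = 3 each). The difference was -3.16 ± 0.41 on the log2 scale (SE; limma adjusted p = 0.0208). It lost the call without Drd2 replicate 1 (limma adjusted p = 0.176), 2 (0.220) or 3 (0.0663), while its size stayed between -2.91 and -3.50. The call was also lost with a pseudocount of 0.1 FPKM, without the intensity trend or without a filter on low values. In bulk samples such as these, fewer cells with a transcript and less transcript per cell cannot be told apart.

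The 250 bases before the RefSeq start of this gene (GRCm38.p6, chr11:71033618-71033867, minus strand) and of Gm11418, a long noncoding member described further on, are printed because the former was the only one of the 22 to be called and the latter was listed at 0 in all PV libraries, which is a description. Capitals would mark, on either strand, the TATA box core TATAAA, the cyclic AMP response core TGACG, the GC box GGGCGG, the E-box CACGTG or the homeodomain core TAATTA, which do not contain one another.
6330403K07Rik: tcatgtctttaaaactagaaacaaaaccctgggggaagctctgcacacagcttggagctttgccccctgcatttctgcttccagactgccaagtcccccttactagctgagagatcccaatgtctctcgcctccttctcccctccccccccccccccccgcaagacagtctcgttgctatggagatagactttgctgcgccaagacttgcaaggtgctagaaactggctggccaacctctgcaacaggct
None of these motifs was found in this window. GGGCGG occurred in 32.7% of the 32851 RefSeq windows of this length, TGACG in 17.8%, TATAAA in 12.4%, CACGTG in 6.02% and TAATTA in 4.84%. Promoter entries were found for 27 of the 60 members, with 32 windows, of which 12 held GGGCGG, 8 TGACG, 4 TATAAA, 3 CACGTG and 2 TAATTA.

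The other protein-coding members at the level in all 6 libraries had differences nearer 0, and none passed. 1500011B03Rik, which RefSeq lists as a long noncoding RNA, measured 199, 193 and 148 FPKM in Drd2 and 92.5, 68.6 and 98.9 FPKM in PV libraries. The groups did not overlap, yet the difference of -1.05 ± 0.36 did not pass (SE; limma adjusted p = 0.253). Gm1673, the mouse counterpart of a small secreted neuropeptide-like protein, measured 228, 161 and 75.6 FPKM in Drd2 and 107, 98.8 and 115 FPKM in PV libraries, and the PV values lay inside the Drd2 range. The highest Drd2 library was 3.02 times the lowest, while the PV libraries had an SD of 8.25 FPKM around 107 FPKM. 1110004F10Rik, which encodes the small acidic protein, measured 137, 99.8 and 128 FPKM in Drd2 and 83.6, 154 and 132 FPKM in PV libraries, overlapping ranges with a difference of -0.01 ± 0.38 (SE; limma adjusted p = 0.996), whose sign turned under several alternatives.

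On the PV side, 1810037I17Rik, the counterpart of a small regulator of the calcium pump of the endoplasmic reticulum, measured 72.9, 61.9 and 82.0 FPKM in Drd2 and 103, 229.6 and 91.1 FPKM in PV libraries. All PV libraries were above all Drd2 libraries, but the difference of 0.84 ± 0.44 did not pass (SE; limma adjusted p = 0.460). 0610009B22Rik stood at 171 FPKM in PV replicate 7, against 30.2 to 61.7 FPKM in the other 5 libraries, and its difference of 0.74 ± 0.57 (SE; limma adjusted p = 0.621) was 0.12 without that library. 2210016L21Rik measured 56.6, 63.1 and 66.1 FPKM in Drd2 and 60.1, 101 and 80.5 FPKM in PV libraries, ranges that overlap.

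The following protein-coding members reached the level in 1 group only, except Gm10800, and those are described without a test. Gm39653 (chr1:63615968-63620819, plus strand) had 7.89, 0 and 0 FPKM in the Drd2 libraries, in replicate order, and measured 62.8, 62.4 and 69.2 FPKM in PV libraries. The PV values lay within 6.83 FPKM of each other, far above the single nonzero Drd2 value. An exact 0 in this table may be a failed estimate and is reported as listed. 1700037H04Rik, among the Drd2 genes, measured 102, 144 and 63.9 FPKM in Drd2 and 49.7, 2.51 and 53.8 FPKM in PV libraries, with PV replicate 7 far below the rest (a difference of -2.21 with it and -0.91 without). Gm10800 and Gm10801 lie 2464 bases apart on chromosome 2 and were both highest in PV replicate 8 and lowest in Drd2 replicate 3. Gm10800 measured 73.7, 310.4 and 39.9 FPKM in Drd2 and 319, 135 and 459 FPKM in PV libraries, at the level in all 6. Its ranges overlapped, and the difference of 1.46 ± 0.73 did not pass (SE; limma adjusted p = 0.449). Gm10801, which reached the level in the PV libraries only, measured 12.9, 63.9 and 3.41 FPKM in Drd2 and 45.7, 30.4 and 99.8 FPKM in PV libraries. Both have no entry in the RefSeq table.

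Of the 13 long noncoding RNAs, 5 reached the level in all 6 libraries, 6 in Drd2 only and 2 in PV only. Gm11418 (ENSMUSG00000087534, chr11:81587361-81593478, plus strand, 4 exons) lies on the opposite strand within the gene body of Asic2, an acid-sensing ion channel subunit, with no exon overlap. It measured 105, 43.9 and 56.4 FPKM in Drd2 replicates 1, 2 and 3 while all 3 PV libraries listed it at 0. No other member was at 0 in all libraries of a group. Asic2 itself measured 9.22, 14.6 and 20.6 FPKM in Drd2 and 2.75, 2.13 and 0.0165 FPKM in PV libraries, without overlap, and its difference of -2.72 ± 0.73 did not pass (SE; limma adjusted p = 0.165). The order of the Drd2 libraries was not shared: Gm11418 was highest in replicate 1, where Asic2 was lowest. In the 250 bases before its RefSeq start (GRCm38.p6, chr11:81587109-81587358, plus strand), TATAAA was the only motif of the 5 found, printed in capitals.
Gm11418: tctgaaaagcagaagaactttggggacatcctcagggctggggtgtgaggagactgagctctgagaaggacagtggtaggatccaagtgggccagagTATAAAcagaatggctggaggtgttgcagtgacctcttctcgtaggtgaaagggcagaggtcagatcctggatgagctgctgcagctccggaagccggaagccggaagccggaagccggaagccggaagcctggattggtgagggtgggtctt
A run of repeated ccggaag units precedes the start, and the window has 56.8% G and C, against a median of 52.4% over all windows.

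For 4 further RNAs the values of a neighbouring gene are given beside them, and these neighbours were named after their values were seen. Gm13629 (chr2:66440880-66546026, plus strand) starts 40 bases from Scn1a, the Nav1.1 sodium channel, on the other strand. It measured 36.9, 25.2 and 107 FPKM in Drd2 and 184, 225 and 176 FPKM in PV libraries. All PV libraries were above all Drd2 libraries, with Drd2 replicate 3 nearest to them, and the difference of 2.03 ± 0.52, the highest of the 22, did not pass (SE; limma adjusted p = 0.151). Scn1a measured 27.6, 17.2 and 23.3 FPKM in Drd2 and 41.5, 79.4 and 68.5 FPKM in PV libraries, also without overlap (1.41 ± 0.44, SE; limma adjusted p = 0.212). Gm13629 shares 180 exon bases with Scn9a on the opposite strand, and Scn9a was at 0.861 to 4.63 FPKM in all 6 libraries.

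B230323A14Rik (chr9:69758740-69830845, plus strand) overlaps 418 exon bases of Foxb1, a forkhead factor that marks the mammillary body. It measured 157, 92.1 and 113 FPKM in Drd2 and 87.6, 41.8 and 64.1 FPKM in PV libraries, with every Drd2 value above every PV value (-0.92 ± 0.42, SE; limma adjusted p = 0.402). Foxb1 measured 76.4, 52.6 and 26.4 FPKM in Drd2 and 24.0, 4.19 and 14.7 FPKM in PV libraries, also without overlap (-1.94 ± 0.66, SE; limma adjusted p = 0.254). The sources used here do not state whether counting used strand, so reads of the shared bases cannot be told apart; 11 of the 60 members share exon bases with a gene on the opposite strand. Gm27199 shares 69 exon bases with Lhx5, a LIM homeodomain factor, and measured 68.1, 23.5 and 40.9 FPKM in Drd2 and 25.4, 51.8 and 75.9 FPKM in PV libraries, overlapping ranges with a difference of 0.20. Lhx5 measured 15.2, 14.8 and 5.38 FPKM in Drd2 and 8.65, 11.2 and 3.50 FPKM in PV libraries, a difference of the other sign that did not pass (-0.54 ± 0.65, SE; limma adjusted p = 0.770). Gm26973, whose gene body overlaps that of Nkx2-1, a homeodomain factor of the hypothalamus, measured 2.07, 9.98 and 20.4 FPKM in Drd2 and 23.2, 26.4 and 26.2 FPKM in PV libraries, while Nkx2-1 measured 7.53, 6.14 and 2.05 FPKM in Drd2 and 6.70, 3.63 and 7.31 FPKM in PV libraries, overlapping ranges.

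**Figure D3:**
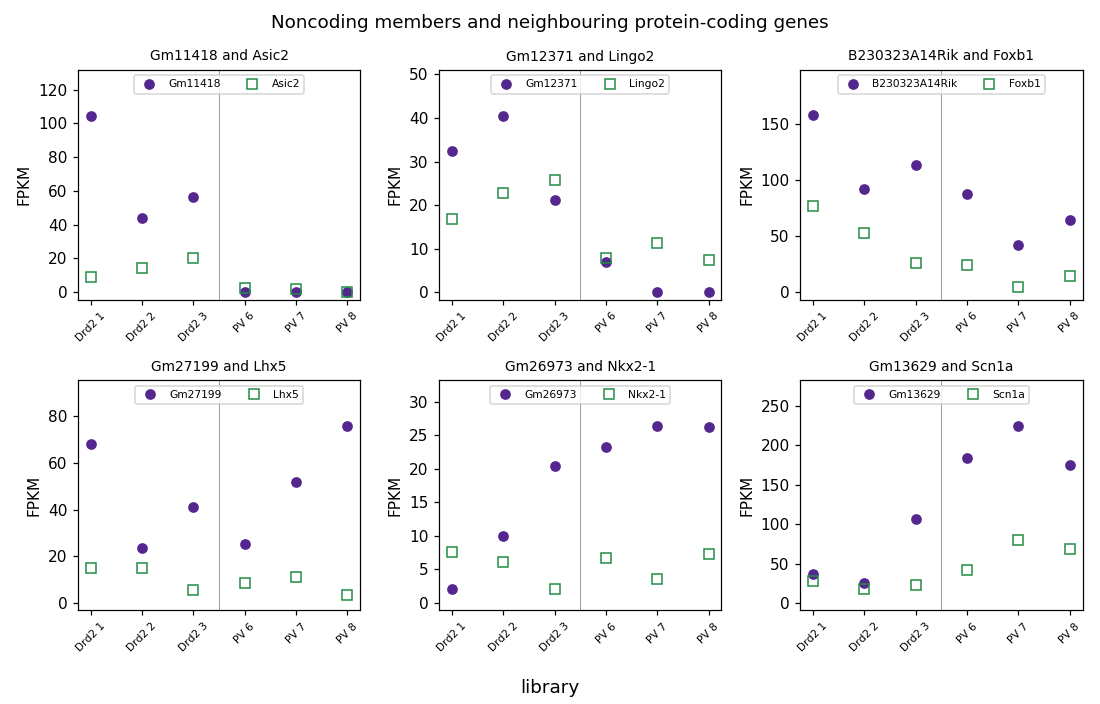
FPKM (vertical axes, linear) of 6 long noncoding members (filled circles) and a neighbouring protein-coding gene (open squares) in each of the 6 libraries, with a line between Drd2 and PV libraries. Gm13629 and Scn1a are both higher in the PV libraries, and Gm11418 and Asic2 both higher in the Drd2 libraries.

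The remaining noncoding members include A230006K03Rik and B230209E15Rik, 218 kb apart on chromosome 7 between Snrpn and Ndn, in the imprinted region that corresponds to the human Prader-Willi locus. A230006K03Rik measured 43.4, 34.9 and 34.9 FPKM in Drd2 and 48.8, 70.5 and 57.3 FPKM in PV libraries, without overlap, and the difference of 0.62 ± 0.38 did not pass (SE; limma adjusted p = 0.533). The flanking Ndn, which encodes necdin, was lower in all PV libraries, with 581, 518 and 357 FPKM in Drd2 and 139, 104 and 107 FPKM in PV libraries. B230209E15Rik measured 56.2, 60.0 and 78.4 FPKM in Drd2 and 55.8, 80.7 and 28.1 FPKM in PV libraries, overlapping ranges. Gm12371, which begins 1219 bases from Lingo2 on the other strand, measured 32.5, 40.6 and 21.3 FPKM in Drd2 and 6.86, 0 and 0.0323 FPKM in PV libraries, and Gm47328 32.8, 31.3 and 34.7 and 4.46, 0 and 0 FPKM. Both were above 20 FPKM in each Drd2 library and at 0 in PV replicate 7. 2410006H16Rik, whose introns carry 3 small nucleolar RNA genes (Snord49a, Snord49b and Snord65), measured 95.3, 119.6 and 66.3 FPKM in Drd2 and 60.6, 122 and 16.0 FPKM in PV libraries, with PV replicate 7 the highest and PV replicate 8 the lowest of all 6.

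The 16 near-identical copies were short (median 347 bases), and 14 had a single exon. For each copy the partner was taken as the matching gene with the highest mean FPKM, which need not be the closest in sequence. Gm8797, for example, was closer to Gm1821 (98.3% identity) than to its partner Ubb (97.9%). For 14 copies this partner was a protein-coding gene, a count that rests in part on that choice. Most have basic cellular roles. They include ribosomal proteins (Rpl41, Rps29, Rpl21), respiratory chain and ATP synthase subunits (Cox7c, Atp5g1, Usmg5) and RNA-processing proteins (Snrpg, Lsm7). Others are cyclophilin A (Ppia), ubiquitin (Ubb) and the cytoskeletal regulators stathmin (Stmn1) and thymosin (Tmsb10). In 7 of the 16 the copy was identical to its partner over its whole length. None of the partners was called by limma, beside 0.261% of all tested genes. The raw limma p was below 0.05 in 4 of 15 tested. The share of all genes at that raw p is not given here, so nothing is read from the 4. Where both members of a pair were tested, 11 of 15 pairs, with 14 distinct partners, had a difference of the same sign. Of the 16 copies, 4 entered through Drd2 only and 6 through PV only, so the sign of their difference is part of the choice. Reads of copy and partner may also be shared, so nothing is read from this count.

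Gm11223, the copy of the microtubule-destabilizing stathmin, had the lowest difference of the copies. It measured 249, 284 and 695 FPKM in Drd2 and 48.5, 113 and 65.8 FPKM in PV libraries, without overlap, and the difference of -2.35 ± 0.50 did not pass (SE; limma adjusted p = 0.0895). Stmn1 measured 1351, 1124 and 1194 FPKM in Drd2 and 213, 661 and 443 FPKM in PV libraries (-1.62, limma adjusted p = 0.179). The copy had its highest level, 695 FPKM, in Drd2 replicate 3, where Stmn1 was not higher than in replicate 1. Without that library the difference of Gm11223 was -1.89 and that of Stmn1 -1.63.

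The share of the copy in the summed FPKM of copy and partner was compared across libraries. It contains the level by which the copy was chosen, so the shares are a description. In 11 of the 14 pairs with a protein-coding partner this share was highest in Drd2 replicate 3, and the median share was 38.7% there, against 13.6% to 22.7% in the other 5 libraries. For Gm14539 beside Usmg5 it was 49.1% in Drd2 replicate 3 and 9.78% to 12.6% in the others. For Gm12338 beside Cox7c it was 40.5%, against 7.89% to 13.2%, and for Gm14303 beside Rps29 26.8%, against 5.27% to 8.18%. All 3 of these copies are identical in sequence to their partner. The shares of Gm10736 beside Rpl41, by contrast, were 47.2% to 59.9% in all 6 libraries, with Drd2 replicate 3 at 56.6%. FPKM divides this copy by 78 exon bases and Rpl41 by 1168, so these are not shares of reads.

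**Figure D4:**
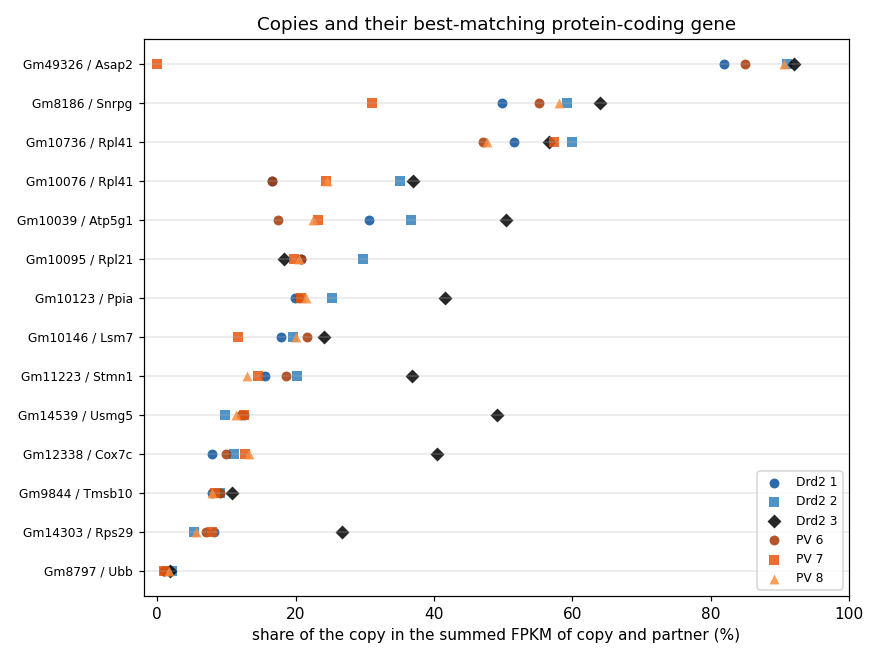
Share of the copy in the summed FPKM of copy and protein-coding partner (%), for 14 pairs (rows) in each library. The partner is the matching gene with the highest mean FPKM. The black diamonds, Drd2 replicate 3, lie apart to the right for Gm14539, Gm12338, Gm14303, Gm10123, Gm11223 and Gm10039 and within the other libraries for Gm10736.

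In 6 of the 14 pairs the share in Drd2 replicate 3 was more than 2 times the median of the other 5 libraries. This library also held the highest microglial marker sum, whose part in these shares was not tested. Leaving it out raised the PV minus Drd2 difference of 10 of the 14 copies and turned the sign of 2. Gm10123, a copy of Ppia, measured 114, 105 and 290.1 FPKM in Drd2 and 58.6, 97.9 and 56.8 FPKM in PV libraries. Its difference of -1.13 ± 0.48 (SE; limma adjusted p = 0.365) became -0.66 without Drd2 replicate 3, while that of Ppia moved from -0.57 to -0.53. For Gm12338 the difference, a description here, moved from 1.15 to 1.81, and its 6 values were 17.6, 14.2 and 66.6 FPKM in Drd2 and 26.7, 126 and 57.9 FPKM in PV libraries.

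By FPKM, which divides by its 78 bases, Gm10736 was the most abundant copy, with 488, 445 and 438 FPKM in Drd2 and 309.7, 598 and 283 FPKM in PV libraries. The 3 Drd2 values lay inside the PV range. By recovered reads it had 1284, 1041 and 815 in Drd2 and 720, 1292 and 626 in PV libraries. Gm11223 had 3778, 3839 and 7458 in Drd2 and 650, 1404 and 839 in PV libraries. Gm10076, another copy of Rpl41, carries 384 bases, which include all 78 bases of Gm10736 unchanged. It measured 90.6, 161 and 197 FPKM in Drd2 and 68.6, 143 and 100.5 FPKM in PV libraries. Neither the difference of Gm10736 nor that of Gm10076 passed (-0.29 ± 0.39 and -0.51 ± 0.44, SE; limma adjusted p = 0.795 and 0.668). The member listed as 4933416I08Rik (ENSMUSG00000079593), a protein-coding gene on the X chromosome, is named Gm14597 in GENCODE M21. There the name 4933416I08Rik belongs to the unprocessed pseudogene that it matches, which was listed at 0 in all 6 libraries. The member measured 163, 143 and 133 FPKM in Drd2 and 52.6, 91.1 and 135 FPKM in PV libraries, with PV replicate 8 inside the Drd2 range. The largest number of matching genes, 54, belonged to Gm10095, a copy of Rpl21.

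Both mitochondrial matches lie on chromosome 1, 1055 bases apart, in a stretch of nuclear DNA that derives from the mitochondrial genome. Gm10925 (chr1:24613974-24614651, minus strand), identical to mt-Atp6 over its 678 bases, measured 10.1, 11.7 and 242 FPKM in Drd2 and 57.6, 330.4 and 27.0 FPKM in PV libraries. Gm29216 measured 8.67, 9.21 and 161 FPKM in Drd2 and 50.6, 126 and 33.6 FPKM in PV libraries. Drd2 replicate 3 and PV replicate 7 were the highest libraries for both members, which entered through the PV libraries.

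Within the Drd2 group, Gm10925 was 22.2 times and Gm29216 18.0 times as high in replicate 3 as in the mean of replicates 1 and 2. Some mitochondrial genes had like ratios: mt-Atp6, a subunit of ATP synthase, was 21.2 times as high, mt-Co2 30.1 times and mt-Co3 22.5 times. These genes were low in Drd2 replicates 1 and 2, at 5.63 to 10.1 FPKM. Gm28661 and Gm28437, in the same stretch of chromosome 1 but not members, measured 10.9, 10.6 and 219 and 7.65, 10.8 and 192 FPKM in Drd2 libraries. Reads of Gm10925 and mt-Atp6 cannot be told apart over the shared bases, and the part of shared reads in these ratios was not tested. mt-Cytb and mt-Co1, whose levels were 1828 to 2887 FPKM in the Drd2 libraries, had ratios of 0.868 and 1.01. Mitochondrial genes together held 3.76% of the FPKM total in Drd2 replicate 3 and 3.74% in replicate 1. Without Drd2 replicate 3 the PV minus Drd2 difference of Gm10925 went from 1.33 to 2.78 and that of Gm29216 from 1.27 to 2.62.

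**Figure D5:**
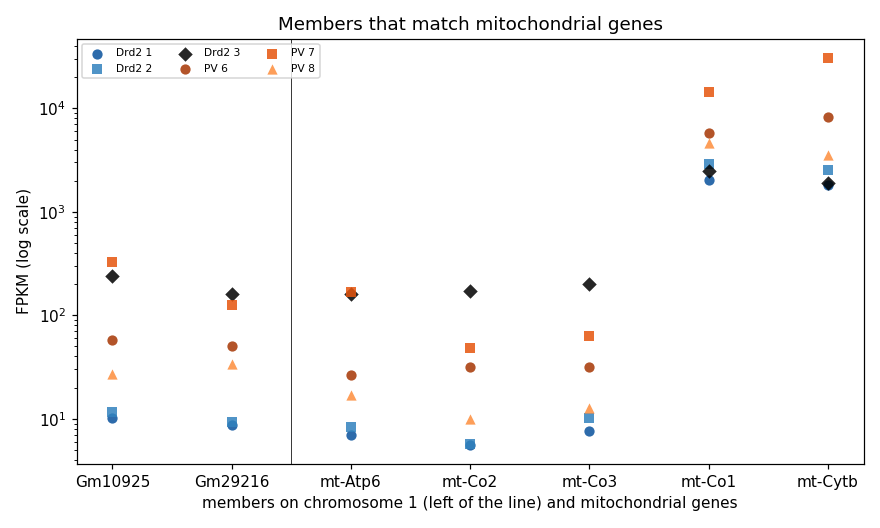
FPKM (log scale) of Gm10925 and Gm29216 and of 5 mitochondrial genes in each library. Drd2 replicate 3 (black diamonds) is far above Drd2 replicates 1 and 2 for the 2 members and for mt-Atp6, mt-Co2 and mt-Co3, and among them for mt-Co1 and mt-Cytb.

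The other pseudogenes and unclassified transcripts entered mostly through the Drd2 libraries (3 of 4 and 3 of 3). 1700086L19Rik (chr12:74284242-74295945, plus strand) is annotated as a transcribed unitary pseudogene, a gene whose coding capacity was lost without a copy elsewhere. It measured 61.8, 112 and 82.3 FPKM in Drd2 and 0.0624, 13.0 and 1.25 FPKM in PV libraries, with PV replicate 7 the highest of its group. Gm19932, Gm43670 and Gm42772 span 18 kb inside the gene body of Kcnip4, an auxiliary subunit of A-type potassium channels. Gm19932 measured 47.4, 109 and 184 FPKM in Drd2 and 85.7, 0 and 40.0 FPKM in PV libraries, and Gm43670 60.0, 66.8 and 149.9 and 78.9, 16.0 and 82.5 FPKM. Gm42772 measured 33.1, 27.1 and 30.7 FPKM in Drd2 and 13.7, 0.0356 and 23.1 FPKM in PV libraries. PV replicate 7 was the lowest library for all 3, whereas Kcnip4 itself was highest there, at 130.2 FPKM against 35.8 to 85.7 FPKM in the other 5. Without that library the differences of Gm19932, Gm43670 and Gm42772 were -0.74, -0.07 and -0.73, against -2.71, -0.82 and -2.12 with it. Gm47098, a processed pseudogene in the gene body of Pcdh15, measured 17.8, 12.1 and 10.7 FPKM in Drd2 and 35.8, 86.2 and 162 FPKM in PV libraries, with all PV values above all Drd2 values.

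Gm26461, annotated as a miscellaneous RNA of 1 exon, was among the most abundant of the members found through the Drd2 libraries, with 145, 182 and 33.0 FPKM in Drd2 and 74.5, 3.49 and 7.54 FPKM in PV libraries. Drd2 replicate 3 lay below PV replicate 6, so the groups overlapped.

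By the level rule, only the 23 members that entered through the Drd2 libraries alone can be at 0 in a PV library. PV replicate 7 listed 8 of these 23 at 0 (34.8%), against 32 of the 702 other genes that entered the same way (4.56%). The other 5 libraries listed 0 to 2 members at 0. Over all members the median SD of log2 values was 0.49 within Drd2 and 0.75 within PV, against 0.32 and 0.65 for other genes at the level. These sets differ in make-up, since 36.7% of the members but 57.3% of the other genes reached the level in all 6 libraries. Among the genes that did, the median SD was 0.37 and 0.53 for the members and 0.30 and 0.54 for the others. There the spread of the members was wider within Drd2 but not within PV. The threshold divides neighbouring values: just inside it, by the larger of the group minima, were Gm10095 (20.3 FPKM), Gm10146 (20.4 FPKM) and 1700001L19Rik (20.5 FPKM), and just outside were 9330179D12Rik (19.7 FPKM), Gm16894 (19.3 FPKM) and 9430081H08Rik (19.3 FPKM).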

How the data were processed

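The deposited table holds FPKM values made by the authors for 6 libraries (2 groups of 3) of one total RNA measurement. The submitters' processing notes name STAR, with no version, beside the genome builds mm10, hg38 and GRCh38; the sources used here give no quantifier, strand setting or annotation release. A SMARTer mRNA kit was used, per the labels' protocols. All 60 members were found by gene identifier in GENCODE M21 (mm10), which gave positions, types and exon lengths; 59 had the same name there. In the RefSeq table (GRCm38.p6) 49 matched by symbol. The longest transcript of each member was compared with all GENCODE M21 transcripts by BLAST 2.17.0.

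Values of at most 20 reads, recovered from FPKM and exon length, were whole within 0.01 read in 97.9% to 98.8% of cases, which gave the denominators. The worth of 1 read in 1 kilobase was 0.0296 to 0.0420 FPKM. PCR copies are not independent molecules, so depth covers counting error only.

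The 11478 genes that reached 1 FPKM in 3 or more libraries were fitted in limma 3.58.1 (R 4.3.3), using the intensity trend and 2-sided tests, on log2(FPKM + 1), with Benjamini-Hochberg adjustment over all of them and a threshold of 0.05. The fit was tested on simulated data. The members and lists were chosen with earlier results of these data known. Single genes were named by a rule: 6330403K07Rik and Gm11418, members past the threshold, the 10 most abundant, the 6 highest and 6 lowest differences among the 22, the 6 most abundant of each single-group route, up to 3 per class, and 3 genes on each side of the level threshold. Others, and all partners and neighbours, were named after their values were seen. Alternatives were other pseudocounts, filters, scalings, variance models, level thresholds and leaving out each library. Limma voom on recovered reads, and leaving out Drd2 replicate 3 with PV replicate 7, were added after seeing the data.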

Additional observations from a re-analysis of the deposited data

How the results depend on the processing

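No paired analysis was possible because the replicate numbers of the groups are not shared. The number of members called by limma, 2 of 60, was 1 with a pseudocount of 0.1 FPKM and 5 with one of 5 FPKM, 0 without a filter on low values, 4 after quantile normalization, 1 without the intensity trend, 6 with array weights and 1 with limma voom on recovered reads, 3 without Drd2 replicate 3 and PV replicate 7 together, and 0 to 4 on leaving out 1 library (0 without Drd2 replicate 2 or 3, 1 without Drd2 replicate 1, 4 without PV replicate 6). These counts include members that entered through 1 group, whose difference is part of the choice, and nothing is read from those; among the 22 at the level in all 6 libraries, 6330403K07Rik and Gm11223 were the only members called under any of the 17 alternatives. 6330403K07Rik kept its direction in all 17 alternatives and its call in 11; its limma adjusted p was 0.0649 with a pseudocount of 0.1 FPKM, 0.0602 without the trend and 0.285 without a filter. Gm11223 passed with array weights alone (limma adjusted p = 0.0442). The members numbered 130 at a threshold of 10 FPKM, 23 at 50 FPKM and 161 after rescaling to TPM, where the same threshold is a lower level. The mean share of the FPKM total held by members in PV libraries was 0.949%, and 1.21% with mitochondrial genes left out of the total. The difference of 1110004F10Rik, near 0, turned to 0.19 with median-of-ratios scaling, 0.23 with quantile normalization and 0.015 with limma voom, and ran from -0.19 to 0.25 on leaving out 1 library. The cause of these changes was not tested. The shortest member, Gm10736 with 78 bases, rested on 626 to 1292 recovered reads a library.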
